A study of Mus musculus with 8 samples.

Results

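The 8 mouse aorta arrays of this series carry a set number at the end of their titles, and what differed between set 2 and set 1, genotype aside, is described here. All 8 of the 8 arrays were used, 4 in each set, and every set holds 2 controls and 2 mutants. The labels do not say what the number stands for (a day, a cohort, a scan or a site), so the sets are described as numbered and are not called a batch. The arrays are named by genotype and by the number in their title: controls 5 and 6 with mutants 7 and 8 in set 1, and controls 1 and 2 with mutants 1 and 2 in set 2.

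The mice were 4 months old and carried the conditional SRF-flex2neo allele of Srf, the gene of serum response factor, a transcription factor of muscle and cytoskeleton genes. Mutants also carried SM22CreERT2ki/+, a tamoxifen-inducible Cre recombinase in 1 allele of the smooth muscle gene SM22 (Tagln), which directs the deletion of Srf to smooth muscle cells. Controls were littermates with SRF-flex2neo. Mice of both genotypes received 1 mg of tamoxifen into the peritoneum on 3 days, with death 8 days later, and each array was made from 2 ug of total RNA of the aorta. Nothing in the labels ties each array to its own animal. The p-values therefore measure only how much these arrays vary, and that variation may be technical. The aorta is a wall of smooth muscle, lined by endothelial cells and wrapped in connective tissue, fat, vessels and nerves, and its root joins the heart. Bulk RNA mixes all of these, and fewer cells of a type cannot be told apart from less RNA per cell.

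Values are log2 levels per probe set, and a difference is set 2 minus set 1, so that 1 is a 2-fold change. The test was limma with set and genotype as terms, over 27023 probe sets, with two-sided p-values adjusted by the Benjamini-Hochberg method over all of them, and a probe set was called at an adjusted p under 0.05. Of these, 5796 were called (21.4%), 2932 higher (10.9%) and 2864 lower (10.6%) in set 2. At least 2-fold were 701 of the higher and 1027 of the lower. With each array centred on its median, which raised the median gene's difference from 0.00 to 0.10, the split was 3220 higher and 1800 lower, so that 64.1% of the calls were higher against 50.6% with the values as deposited. Leaving out 1 array gave between 3391 calls (without control 2) and 7511 (without mutant 8), with 3728 without mutant 1 and 3780 without mutant 2. Taking the brightest probe set of each gene, 1073 of 12173 genes were higher (8.81%) and 948 lower (7.79%), 2021 in all (16.6%). The arrays of the sets did not overlap in 3217 genes (26.4%) and 8565 probe sets (31.7%). These shares are the background for every count below.

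Mutant 8 stood apart from the rest. It correlated with the other arrays at 0.961 to 0.974 across probe sets, whereas the other arrays correlated at 0.992 to 0.997 with arrays of their own set and 0.983 to 0.988 with those of the other set. Contractile smooth muscle genes were bright on every array, with a summed log2 level of 18.62 to 18.94 in set 1 and 18.70 to 18.85 in set 2. Srf itself was at 10.12 ± 0.41 in set 1 and 10.29 ± 0.09 in set 2 (SD, n = 4 arrays), a difference of 0.17 (SE 0.19, limma adjusted p = 0.525). On all 8 arrays the Y-linked gene Eif2s3y was between 9.90 and 10.23, and Xist, the RNA of the inactive X chromosome, was between 2.74 and 3.17, in the dimmest 40% of probe sets, which were not tested.

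**Figure D1:**
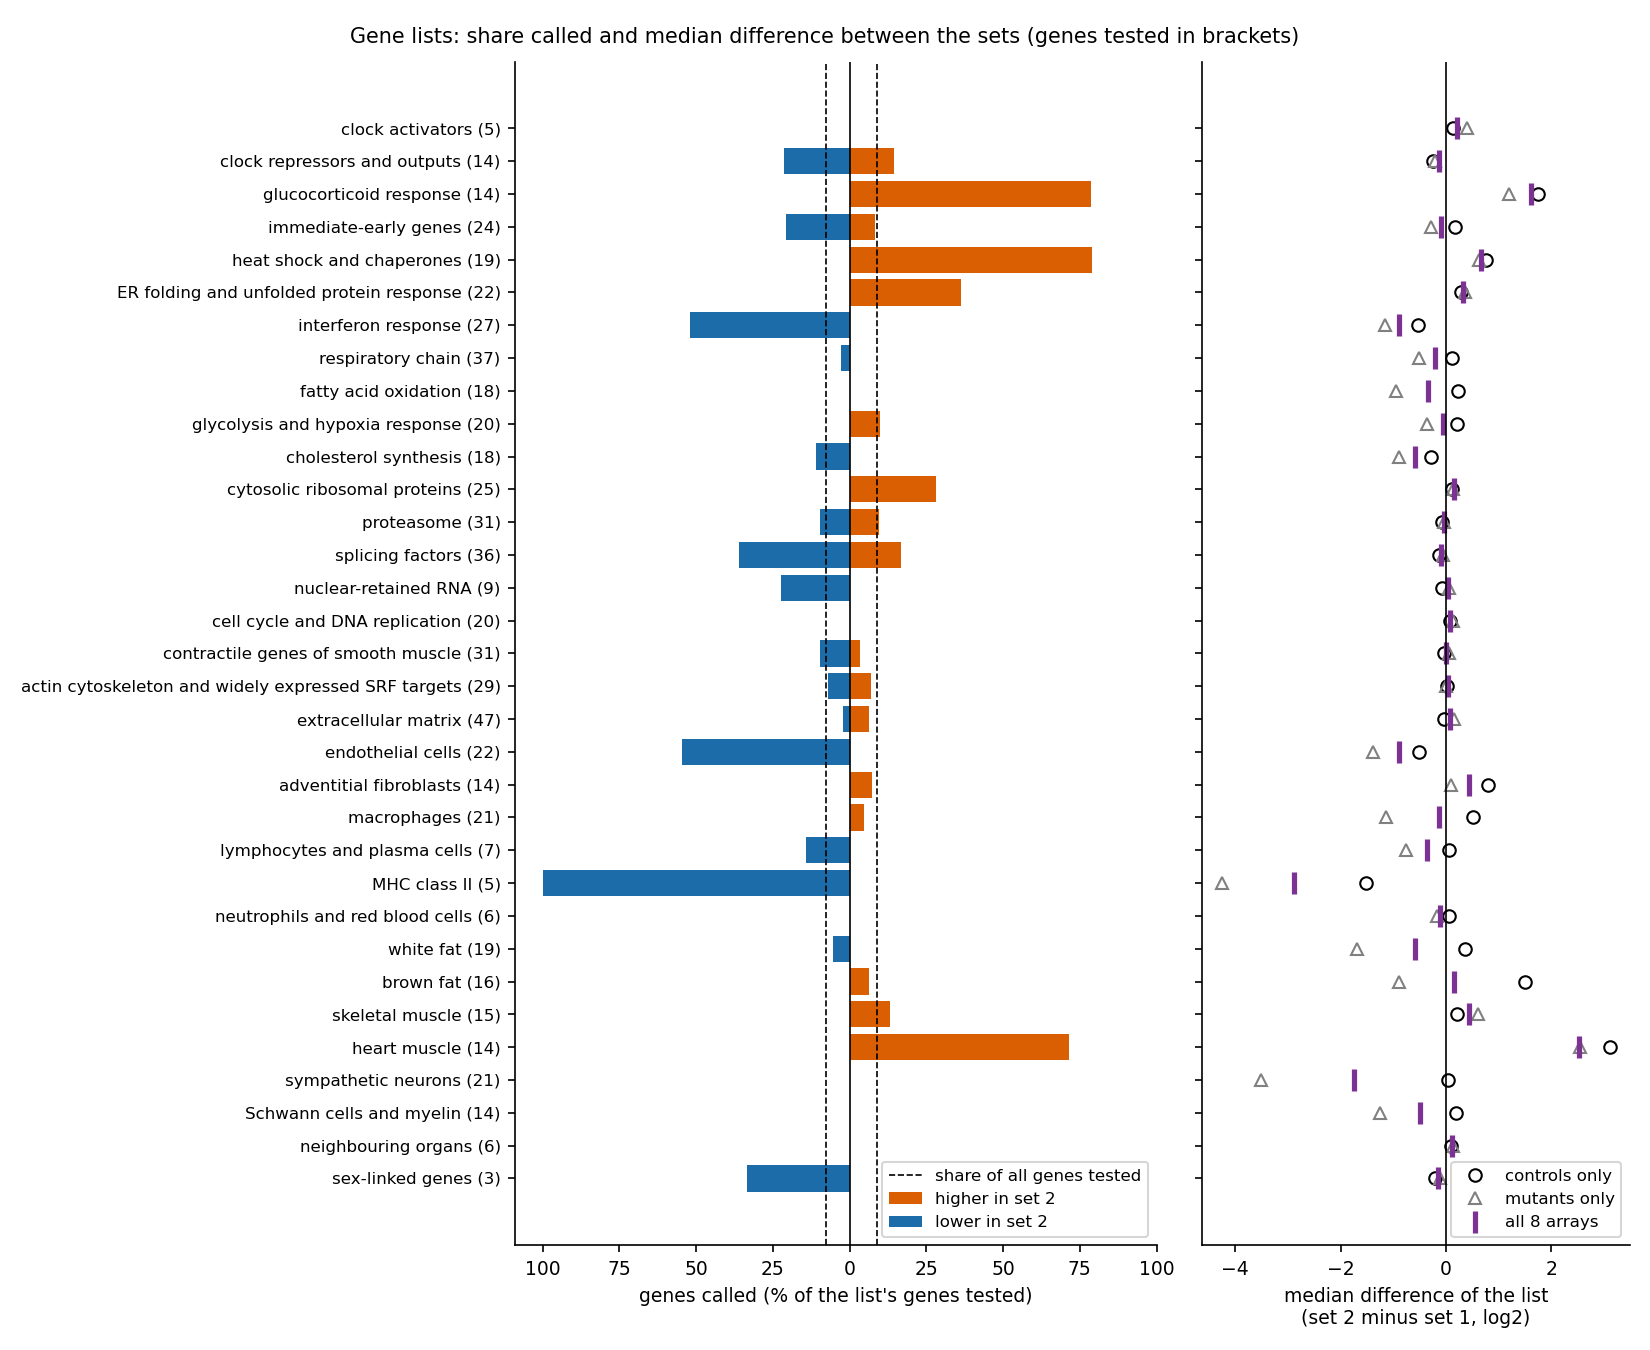
Left, the share of each list's tested genes called higher (orange, right) or lower (blue, left) in set 2, with dashed lines at the share of all genes tested (8.81% and 7.79%). Right, the list's median log2 difference between the sets over all arrays (bar), controls only (circle) and mutants only (triangle). Heart muscle, glucocorticoid and chaperone lists reach 71.4 to 78.9% higher, and MHC class II, endothelial and interferon lists 51.9 to 100% lower.

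Genes of working heart muscle were far higher in set 2. Heart muscle cells contract with their own forms of myosin and troponin, which the smooth muscle of the aorta does not use. Of 14 heart muscle genes tested, 10 were called higher and none lower, against 8.81% of all genes, and the list's median difference was 2.53 against 0.00 for all genes. The list had been chosen with these results known. Myh6, the alpha cardiac myosin heavy chain, was at 4.41 and 7.52 in the controls of set 1, 4.49 and 7.66 in its mutants, 11.54 and 9.77 in the controls of set 2 and 11.15 and 10.46 in its mutants. The lowest array of set 2 was above the highest of set 1, and within set 1 control 6 and mutant 8 stood above the other pair. The difference was 4.71 (SE 0.92, adjusted p = 0.0136). Tnnt2, cardiac troponin T, was at 3.14, 6.55, 3.25 and 5.86 in set 1 and at 11.11, 8.35, 9.81 and 9.02 in set 2, in the same order of arrays. As for Myh6, control 1 was highest of all and control 6 and mutant 8 were above the other arrays of set 1. Its difference of 4.87 (SE 0.98, adjusted p = 0.0154) fell just short of the call without mutant 1 (adjusted p = 0.0507). Tnni3, cardiac troponin I, was at 4.61, 4.51, 3.59 and 4.64 in set 1 and at 9.27, 6.94, 8.62 and 7.73 in set 2 (difference 3.80, SE 0.53, adjusted p = 0.00411). Here the arrays of set 1 lay close together, without the step in control 6 and mutant 8.

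Mb, the oxygen store myoglobin of heart and skeletal muscle, had the highest difference of any gene called, 5.01 (SE 0.84, adjusted p = 0.00768), from 3.14, 6.12, 4.29 and 7.31 to 10.28, 9.44, 10.90 and 10.28. The giant sarcomere protein Ttn differed by 4.08, the regulatory light chain Myl2 by 4.51, the mitochondrial creatine kinase Ckmt2 by 3.89, the M-band protein Myom2 by 3.86 and the slow and cardiac troponin C Tnnc1 by 3.55. Myl2 was called in only 2 of the 8 fits that leave out 1 array, those without control 6 and without mutant 8, and Ttn lost its call without control 1, mutant 1 or mutant 2 (highest adjusted p = 0.0621). Nppa, atrial natriuretic peptide, differed by 1.86 and Myl3, the ventricular essential light chain, by 2.31, both with arrays that did not overlap. Atrial genes were high mainly on 1 array: Myl7, the atrial regulatory light chain, was at 10.73 in control 1 and between 2.23 and 3.72 on the other arrays, and Sln, sarcolipin, was at 8.54 in control 1 and between 2.07 and 2.76 elsewhere. Neither passed (adjusted p = 0.261 and 0.32).

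The summed log2 level of the heart list ran from 9.91 to 11.07 in set 1 and from 12.09 to 14.00 in set 2, with mutant 8 highest in set 1 and control 1 highest in set 2. Without mutant 1 the count of heart genes called fell from 10 to 6, and it was 7 to 11 without any other array. Among controls alone it was 3. Of 15 skeletal muscle markers tested, 11 were above 0, and Mb and Ttn, both also expressed in heart, were called. The list's mean log2 level relative to all arrays was between -0.63 and -0.08 in set 1 and between 0.14 and 0.86 in set 2, without overlap, while its summed level, 10.80 to 12.17 and 11.98 to 12.35, overlapped. Ckm, the muscle creatine kinase of heart and skeletal muscle, was between 2.21 and 2.28 in set 1 and at 5.83, 3.26, 3.37 and 3.81 in set 2, highest in control 1 (difference 1.82, adjusted p = 0.051). The skeletal actin gene Acta1 differed by 0.87 (adjusted p = 0.0716). The fast myosin gene Myh4 was between 3.09 and 3.24 on all arrays, at the dim end of the table. Myh7, the slow myosin that is also a heart gene, was between 4.70 and 10.58 in set 1 and between 5.54 and 6.35 in set 2 (difference -1.83, adjusted p = 0.273). The labels do not say where the aorta was cut, and the part of heart tissue in these values was not tested. Casq2, calsequestrin of heart and smooth muscle, which stood in the contractile list, was 2.24 higher in set 2 (adjusted p = 0.0241). It was high on the arrays with high heart genes, 6.89 in control 1 and 6.45 in mutant 1, and its call was lost without control 5, control 6, mutant 7 or mutant 1 (adjusted p 0.062 to 0.0706).

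Target genes of the glucocorticoid receptor were higher in set 2 as a group. Glucocorticoids are adrenal hormones that rise with stress and with the daily rhythm, and their receptor switches on a set of genes shared by many tissues. Of 14 such genes tested, 11 were called higher and none lower, and the median difference was 1.62. Fkbp5, a co-chaperone that dampens the receptor itself, was at 8.32, 8.31, 8.83 and 9.66 in set 1 (controls 5 and 6, mutants 7 and 8) and at 11.35, 12.13, 11.50 and 12.50 in set 2 (controls 1 and 2, mutants 1 and 2). All arrays of set 2 were above all of set 1, by 3.09 in the mean (8.51-fold, SE 0.32, adjusted p = 0.00154), and its second tested probe set differed by 2.67. Zbtb16, a zinc finger repressor also called PLZF, was at 9.66, 10.22, 9.83 and 10.38 in set 1 and at 12.78, 13.21, 12.98 and 13.27 in set 2. The arrays of each set lay close together, and the difference was 3.04 (SE 0.18, adjusted p = 0.000357).

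Errfi1, a feedback inhibitor of the EGF receptor, was at 10.89, 10.81, 11.31 and 11.87 in set 1 and between 12.94 and 13.05 on all arrays of set 2 (difference 1.78, SE 0.18, adjusted p = 0.00152). Nfkbia, the inhibitor of NF-kappa-B, moved in the same way, from 11.96 to 12.55 in set 1 to 13.59 to 13.71 in set 2 (difference 1.39, SE 0.11, adjusted p = 0.000857). Tsc22d3, known as GILZ, was at 8.34, 8.00, 9.28 and 10.58 in set 1 and at 10.84, 10.78, 10.72 and 11.66 in set 2 (difference 1.95, SE 0.41, adjusted p = 0.0176). In set 1 the mutants were above the controls for this gene, and mutant 8 came close to set 2. The cell cycle inhibitor Cdkn1a differed by 1.66, the metal-binding metallothioneins Mt2 and Mt1 by 1.63 and 1.05, the kinases Map3k6 and Sgk1 by 1.80 and 1.23, and Pdk4, which holds back glucose oxidation, by 1.61 with arrays that overlapped. The other 3 of the list, Dusp1 (-0.13), Klf9 (-0.11) and Hif3a (0.07), were not called. Without control 2 the count was 6 in place of 11, and without any other array it was 8 to 11.

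One sequence shows the element that the receptor binds. The palindrome of AGAACA and TGTTCT, 3 letters apart, was searched on both strands of RefSeq promoter windows around gene starts (build GRCm38.p6), and 0.00913% of 32851 windows hold it. Of the 13 tested list genes with a window, 1 held it, Sgk1, in 1 of its 6 start sites. The stretch shown is chr10:21993680-21993799, plus strand, with the match in capitals from position -189 relative to the start.
Sgk1: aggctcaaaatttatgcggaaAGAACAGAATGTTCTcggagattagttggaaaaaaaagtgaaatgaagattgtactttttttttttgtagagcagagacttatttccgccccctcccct
This motif and those of the chaperone, MHC and interferon genes below were chosen after the values had been seen, and a match is a description of letters, not a bound site.

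Chaperones of the cytosol and mitochondria, the proteins that fold and refold other proteins and that rise when cells are heated or stressed, were also higher in set 2. Of 19 tested, 15 were called higher and none lower, with a median difference of 0.66. Hsph1, a nucleotide exchange factor for Hsp70, was at 11.01, 10.87, 11.21 and 10.89 in set 1 and at 12.33, 12.90, 12.87 and 12.22 in set 2 (3.00-fold, difference 1.59, SE 0.19, adjusted p = 0.00229). The sets were separated by a gap wider than the range within either of them. Hspb1, the small heat shock protein Hsp27, was at 13.32, 12.76, 13.13 and 13.21 in set 1 and at 14.15, 14.29, 14.14 and 14.43 in set 2 (difference 1.15, SE 0.13, adjusted p = 0.00215). Hspa8, the constitutive Hsp70, was at 14.05, 13.76, 13.87 and 14.06 in set 1 and at 14.47, 14.79, 14.55 and 14.66 in set 2, a difference of 0.68 (SE 0.10, adjusted p = 0.0055). The inducible Hsp70 genes Hspa1b and Hspa1a differed by 1.56 and 1.49, the latter with arrays that overlapped. Of 3 tested probe sets of Hspa1b, 1 was called, and the others had a limma adjusted p of 0.0563 and 0.0649. These genes are near-identical copies whose probe sets may not separate them. Each had its highest value of set 1 in control 5 or mutant 7 and its lowest of set 2 in mutant 2.

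Partners of Hsp90 rose with them: Stip1 by 0.94, Chordc1 by 0.71, Fkbp4 by 0.62 and Ahsa1 by 0.42, with Hsp90aa1 itself at 0.60. Small heat shock proteins and their co-factor Bag3 were between 0.61 and 1.15 higher. The members not called were the Hsp40 genes Dnaja1 (0.88, adjusted p = 0.0669) and Dnajb1 (0.60), the mitochondrial Hspd1 (0.20) and Hspa4 (-0.09). Leaving out control 2 gave 9 called in place of 15, and leaving out any other array gave 10 to 14.

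Heat shock factor binds repeats of the letters GAA in turn with TTC. The repeat of GAA, TTC and GAA, each 2 letters apart, on either strand, is held by 0.603% of all promoter windows, and by 4 of the 16 tested chaperone genes with a window: Chordc1, Hspd1, Hspe1 and Hsph1. Of these, Hspd1 was not called. The windows of Hsph1 (chr5:149636286-149636375, minus strand) and Chordc1 (chr9:18292207-18292296, plus strand) are shown since both genes were called with arrays that did not overlap. Capitals mark the repeat, which lies on the opposite strand in Hsph1 and overlaps itself in Chordc1.
Hsph1: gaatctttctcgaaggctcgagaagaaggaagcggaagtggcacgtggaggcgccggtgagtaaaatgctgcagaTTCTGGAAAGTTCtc
Chordc1: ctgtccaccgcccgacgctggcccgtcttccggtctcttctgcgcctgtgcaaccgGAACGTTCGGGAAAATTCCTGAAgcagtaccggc

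Folding genes of the endoplasmic reticulum, where secreted proteins mature, shifted less. Of 22 tested, 8 were called higher and none lower, with a median difference of 0.32. Sel1l, part of the complex that removes misfolded proteins, was at 9.73, 9.56, 9.57 and 9.34 in set 1 and at 10.32, 10.37, 10.64 and 10.38 in set 2 (difference 0.88, SE 0.11, adjusted p = 0.00291). The lumenal chaperones Hspa5 and Hsp90b1 were 0.65 and 0.39 higher and the stress transcription factor Atf4 was 0.38 higher, a call lost without control 2 or mutant 1. Xbp1 (0.23) and Ddit3 (0.46), a marker of unresolved stress, were not called. This count was fragile, at 1 without control 2, 2 without mutant 1, 3 without control 6 or control 1, 4 without control 5 or mutant 2, and 4 with no filter on dim probe sets.

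**Figure D2:**
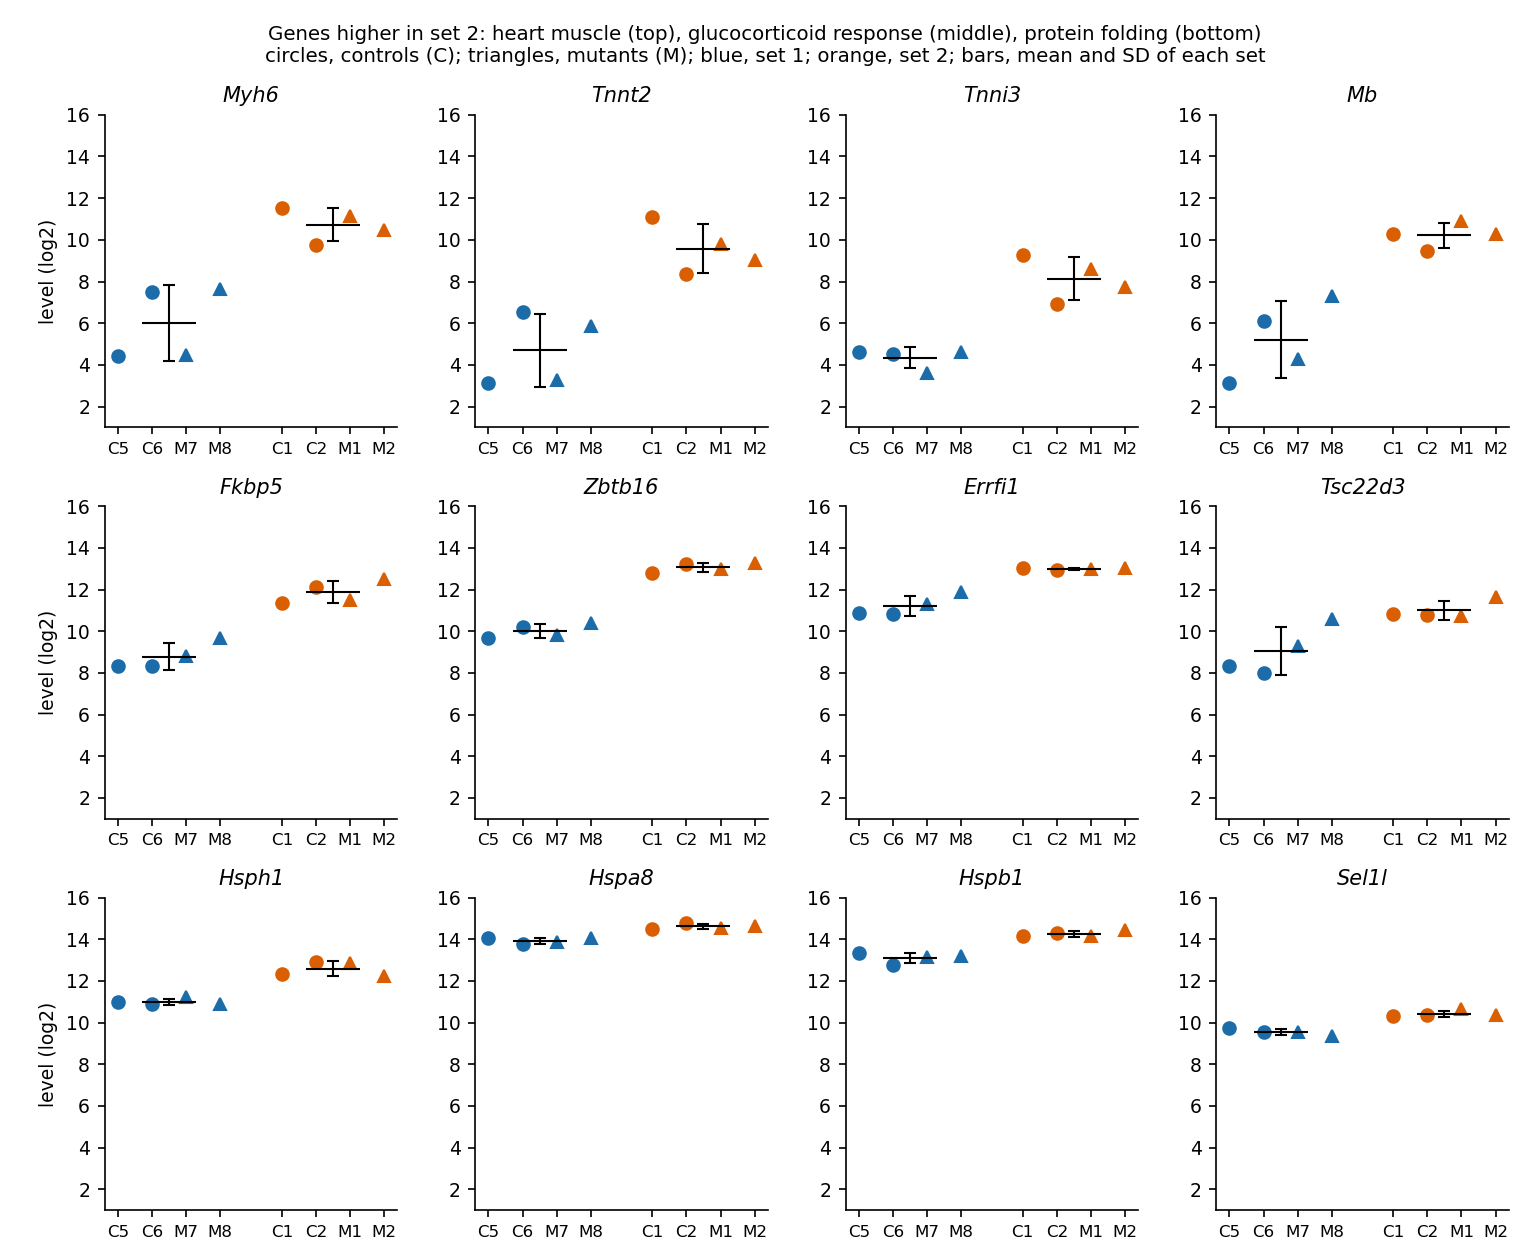
Log2 level of 12 genes on each array, with controls (C) as circles and mutants (M) as triangles, set 1 in blue and set 2 in orange, and bars for the mean and SD of each set. Every gene shown has all arrays of set 2 above all of set 1. The set means differ by 3.80 to 5.01 in the heart and muscle genes and by 0.68 to 1.59 in the folding genes.

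Genes of antigen presentation by MHC class II were lower in set 2, with larger differences among the mutants than among the controls. MHC class II molecules carry peptides to T helper cells and are made by macrophages, dendritic cells and B cells, and by other cells under interferon gamma. All 5 genes tested were called lower and none higher, against 7.79% of all genes, with a median difference of -2.88. Cd74, the invariant chain that guides these molecules, was at 9.84 and 8.91 in the controls and 12.35 and 12.05 in the mutants of set 1. In set 2 it was at 6.98 and 7.01 in the controls and 6.40 and 8.81 in the mutants. The mutants of set 1 were highest, mutant 2 was highest in set 2, and the sets still did not overlap (difference -3.49, SE 0.65, adjusted p = 0.0115). H2-Aa, an alpha chain, was at 9.44, 8.60, 12.14 and 11.73 in set 1 and at 7.15, 7.27, 6.80 and 8.37 in set 2 (difference -3.08, SE 0.60, adjusted p = 0.0132). Both beta chains, H2-Ab1 and H2-Eb1, had a difference of -2.88, and H2-DMa, which helps to load peptides, of -2.36. In H2-Eb1 the difference was -1.51 in the controls and -4.25 in the mutants, and the test of that gap did not pass (interaction adjusted p = 0.492). Without mutant 2, 3 of the 5 were called, and the adjusted p of H2-Ab1 was 0.0521.

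The promoters of MHC class II genes share a Y-box, CTGATTGG, in a cluster of elements close to the start. It is held by 4.1% of all promoter windows and by 2 of the 3 tested list genes with a window. Those of H2-Aa (chr17:34287814-34287953, minus strand) and H2-Eb1 (chr17:34305737-34305876, plus strand) are printed with the Y-box in capitals from positions -51 and -62 relative to the start.
H2-Aa: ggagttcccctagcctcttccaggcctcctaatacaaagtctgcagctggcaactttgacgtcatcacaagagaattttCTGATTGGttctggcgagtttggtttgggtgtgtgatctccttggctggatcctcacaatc
H2-Eb1: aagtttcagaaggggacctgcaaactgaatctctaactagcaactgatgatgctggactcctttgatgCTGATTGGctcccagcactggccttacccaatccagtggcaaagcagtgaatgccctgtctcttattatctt

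Both Igha and Jchain, which belong to antibody-producing cells, were lower in set 2. Igha, the constant region of IgA and the gene with the lowest difference of all genes called, was at 6.18, 8.87, 12.61 and 10.80 in set 1 and between 3.49 and 3.98 in set 2, a difference of -5.92 (SE 1.07, adjusted p = 0.0103). Jchain, which links IgA and IgM units, was at 3.33, 6.12, 10.02 and 7.66 in set 1 and at 2.68, 2.67, 2.67 and 3.32 in set 2, with control 5 barely above set 2 (difference -3.95, SE 1.01, adjusted p = 0.0343). Its call held only without control 5 or without mutant 8. Jchain also passed the filter on dim probe sets only through its level in set 1 (mean 2.84 in set 2). Both genes had the order mutant 7, mutant 8, control 6 and control 5 in set 1 and were at the dim end of the table in set 2. Of the 6 tested probe sets of Ighm, the IgM constant region, 1 was called, and the brightest was at 13.10 in mutant 7 and between 6.74 and 6.84 on every other array. Jchain was the only called member of 7 tested lymphocyte and plasma cell genes. The part of plasma cells in these values was not tested.

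Interferon-response genes, which cells switch on against viruses and under inflammation, were lower in set 2 too. Of 27 tested, 14 were called lower and none higher, with a median difference of -0.90. Bst2, the membrane protein tetherin that holds virus particles at the cell surface, was at 9.60, 9.53, 9.83 and 9.99 in set 1 and at 8.46, 8.63, 8.84 and 8.67 in set 2. This was the gene of the list with the smallest p (difference -1.09, SE 0.08, adjusted p = 0.000646), and controls and mutants differed little. Gbp3, a guanylate-binding protein against intracellular pathogens, was at 7.49, 7.31, 9.05 and 9.70 in set 1 and at 5.98, 5.51, 6.97 and 6.74 in set 2 (difference -2.09, SE 0.24, adjusted p = 0.00221). Mutants were above controls within each set. Stat2, which carries the type I interferon signal, fell by 1.65 (SE 0.21), Irf1 by 1.15, Gbp7 by 1.43 and Igtp by 2.23. The antigen-processing genes Tap1 and Psmb9 fell by 2.21 and 2.36.

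Several well-known antiviral genes were not called. Rsad2 (-0.11), Mx1 (0.28), Ifit3 (-0.63) and Usp18 (-0.90) had adjusted p between 0.272 and 0.88, and mutant 1 of set 2 was among their highest arrays, with Ifit3 at 9.78 there and between 6.42 and 9.32 elsewhere. Since mutants were above controls for many of these genes, the genotype term mattered. Without it 5 of the 27 were called, and among controls alone 12.

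The letters GAAA repeated 2 letters apart are part of the element bound by interferon-activated factors. This repeat was found on either strand in 3.44% of all promoter windows and in at least 1 window of 13 of the 22 tested list genes that have one, against 3.99% of all genes. Of the genes called, the windows of Gbp2 (chr3:142620553-142620672, plus strand) and Igtp (chr11:58199446-58199565, plus strand) are shown with it in capitals, on the opposite strand in Gbp2.
Gbp2: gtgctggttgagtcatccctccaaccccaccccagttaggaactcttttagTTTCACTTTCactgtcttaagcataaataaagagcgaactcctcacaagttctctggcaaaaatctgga
Igtp: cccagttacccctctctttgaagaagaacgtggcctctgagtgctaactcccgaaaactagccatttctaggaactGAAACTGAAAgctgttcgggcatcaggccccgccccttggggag

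Endothelial genes were lower in set 2 as well. The endothelium is the single layer of cells that lines the vessel. Of 22 markers tested, 12 were called lower and none higher, with a median difference of -0.90. Mmrn2, a matrix protein of vessel walls made by endothelial cells, was at 10.30 and 10.14 in the controls and 11.34 and 11.45 in the mutants of set 1, and at 9.28 and 8.83 in the controls and 9.84 and 9.75 in the mutants of set 2. Mutants were above controls in both sets, and every array of set 2 was below every array of set 1 (difference -1.38, SE 0.13, adjusted p = 0.00131). Plvap, which forms the diaphragms of small vessels, was at 8.96, 9.16, 10.18 and 10.33 in set 1 and at 7.77, 7.33, 8.00 and 7.43 in set 2 (difference -2.02, SE 0.25, adjusted p = 0.00272). Vwf, the clotting factor stored in endothelial cells, fell by 1.34, the receptor Tie1 by 1.56, the tight junction protein Cldn5 by 1.32 and the adhesion molecule Pecam1 by 1.18.

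Of the 22 markers 21 were below 0, and the exception was Flt1 (0.46), a VEGF receptor. The 10 not called included Emcn (-1.70), Cdh5 (-0.99, adjusted p = 0.113), Kdr (-0.62), Nos3 (-0.32) and Eng (-0.05). For Kdr and Emcn mutant 8 was far above the rest, at 9.06 and 8.73. Without the genotype term 6 of the 22 were called, and among controls alone 4. The summed log2 level of the endothelial list ran from 13.35 to 14.66 in set 1 and from 12.51 to 13.31 in set 2.

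**Figure D3:**
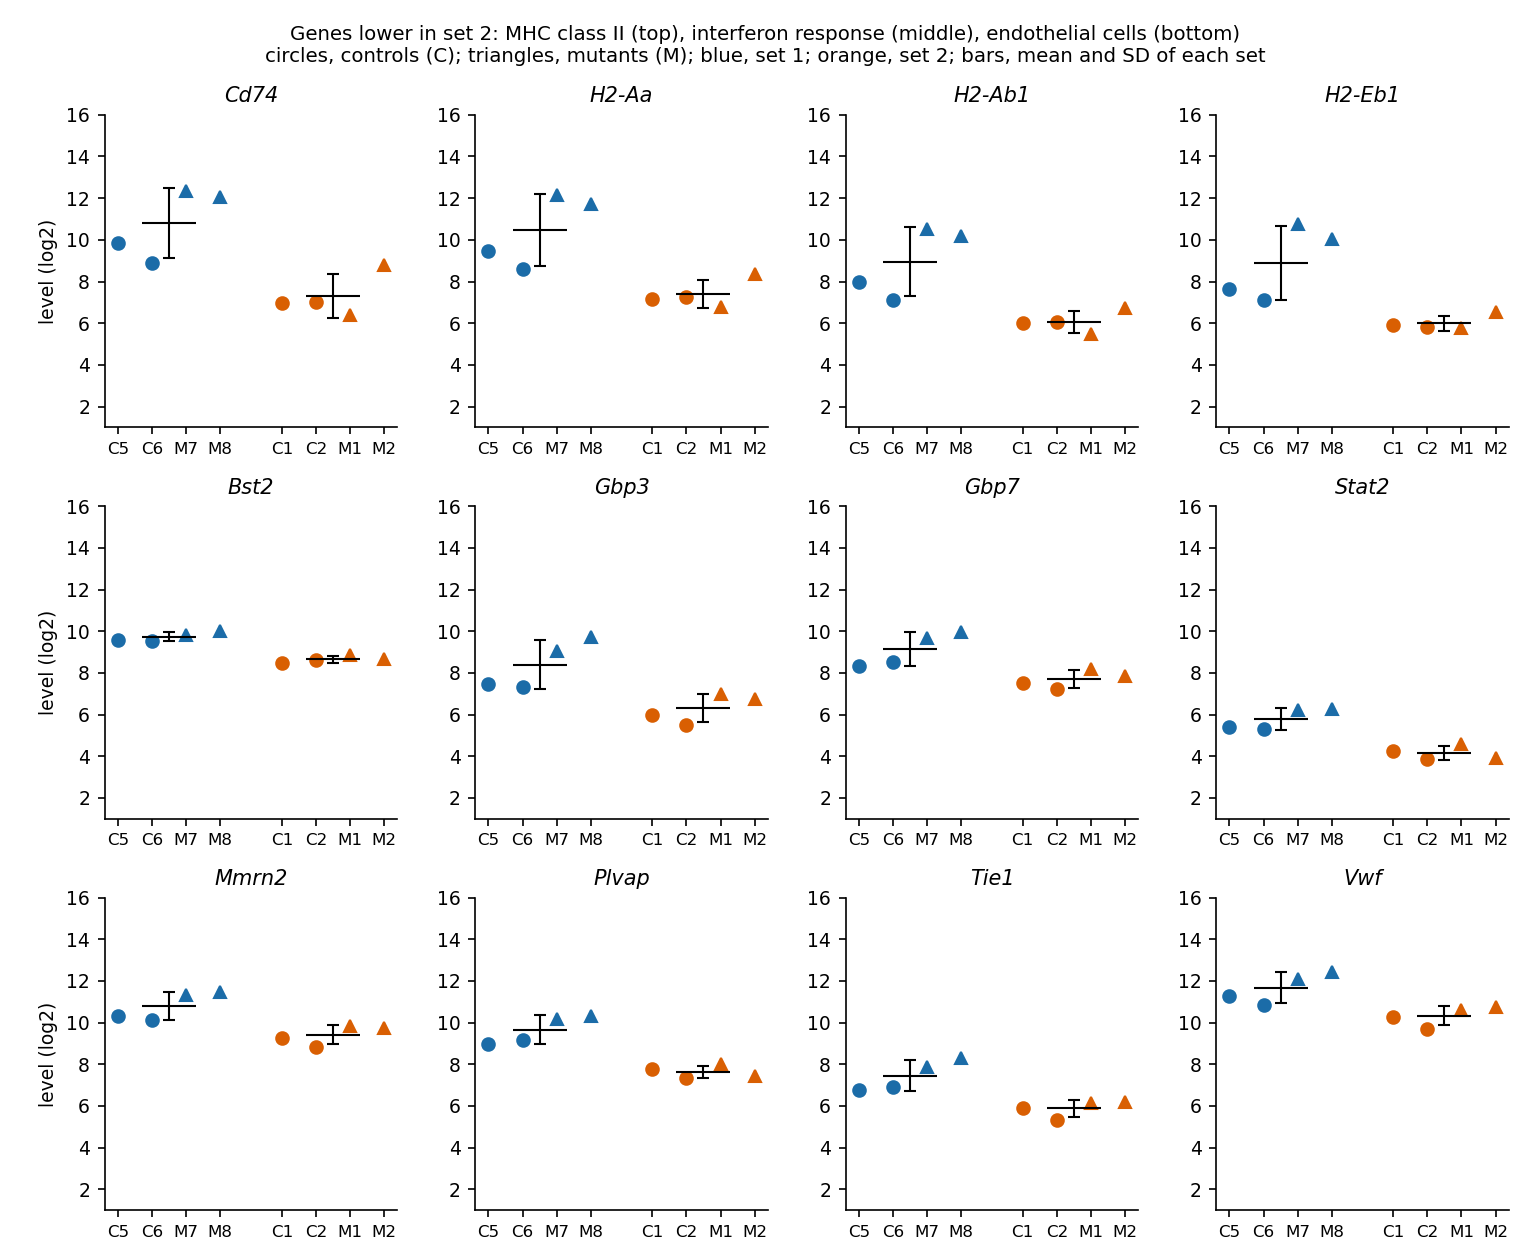
Log2 level of 12 genes lower in set 2 on each array, with controls (C) as circles, mutants (M) as triangles, set 1 in blue, set 2 in orange and bars for the mean and SD of each set. In MHC class II genes mutants 7 and 8 stand far above the rest, while Bst2 separates the sets with little spread within them (9.53 to 9.99 against 8.46 to 8.84).

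Genes of the circadian clock changed in part, in both directions, and for some of them the call depended on the probe set. In the clock, Arntl and Clock activate the Per and Cry genes, whose products turn them off again over a day, and Dbp, Tef and Hlf are outputs that follow the same rhythm. In their brightest probe sets none of the 5 activators tested was called by limma. The 2 at an unadjusted p under 0.05 were Rora (difference 0.45) and Rorb (0.17). Rorb was at the dim end of the table, between 3.02 and 3.31. Arntl was at 2.84, 6.04, 4.64 and 4.88 in set 1 and 5.83, 5.30, 6.33 and 4.71 in set 2 (difference 0.94, SE 0.70). Clock differed by 0.20 and Npas2 by 0.08. Rora, an activator of Arntl, was called higher in 2 of its other probe sets (0.59 in each, adjusted p = 0.0201 and 0.0165). Of 14 repressors and outputs, 2 were higher (14.3%) and 3 lower (21.4%), against 8.81% and 7.79% of all genes. Nfil3, a repressor that opposes Dbp at the same sites, was at 6.88, 6.97, 6.06 and 5.98 in set 1 and at 9.09, 8.36, 9.32 and 8.30 in set 2 (difference 2.30, SE 0.31, adjusted p = 0.00374). Dbp was at 13.75, 12.88, 13.14 and 12.64 in set 1 and at 11.58, 12.23, 10.91 and 12.41 in set 2 (difference -1.32, SE 0.37, adjusted p = 0.045), and Hlf differed by -1.21 (adjusted p = 0.0319). In set 2 both outputs were lowest in mutant 1 and then in control 1, and their calls depended on the array: Hlf was called only without mutant 7 or mutant 2, and Dbp only without mutant 8 or mutant 2. With median centring Dbp was not called.

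Bhlhe41, the repressor DEC2, was at 5.20, 4.07, 3.92 and 3.15 in set 1 and between 2.08 and 2.30 in set 2 (difference -1.85, adjusted p = 0.00933). It passed the filter on dim probe sets only through its level in set 1 (mean 2.24 in set 2). Per1, a period gene that glucocorticoids also induce, was at 8.66, 8.17, 8.80 and 8.75 in set 1 and at 9.24, 9.54, 9.08 and 9.79 in set 2, a difference of 0.82 (SE 0.19, adjusted p = 0.0253). It lost its call without control 6, mutant 7, control 1, control 2 or mutant 2, with an adjusted p of up to 0.0758. The other members were not called in their brightest probe set: Per2 (-0.02), Per3 (0.14), Cry1 (0.09), Cry2 (0.08), Nr1d1 (-0.72), Nr1d2 (-0.25), Bhlhe40 (-0.73), Tef (-0.39) and Ciart (0.03). Of these, 4 had other probe sets that were called: Per3 lower in 2 (-1.39 and -1.10, adjusted p = 0.0493 and 0.0193), Nr1d2 lower in 1 (-1.51, adjusted p = 0.0304), Tef lower in 2 (-3.82 and -2.03) and Per2 higher in 1 (1.34, adjusted p = 0.00933). In set 2, control 2 and mutant 2 were above control 1 and mutant 1 for Per2, Per3, Cry1, Dbp, Hlf and Ciart. Ciart, a repressor with a strong daily swing, was at 6.26 and 4.71 in control 1 and mutant 1 and at 7.30 and 7.46 in control 2 and mutant 2. The sources used here do not give the time of day at which mice were killed.

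Among the promoters of these genes, the E-box CACGTG, bound by Arntl with Clock, was held by 5 of the 12 repressors and outputs that have a window (Bhlhe41, Ciart, Cry1, Per1 and Tef) and by none of the 5 activators, against 7.15% of all windows. The D-box TTATGNAA, bound by Dbp and Nfil3, was held by 2 of the 12, Per1 and Per3 (3.38% of all windows). The element TGACGTCA of the cAMP response was held by 1, Hlf (1.79%), and the ROR element AGGTCA by 3 of the 12 and by Arntl and Clock (16.3%). Per1 (chr11:69098759-69098958, plus strand) is shown as the member whose window holds an E-box and a D-box, which are in capitals.
Per1: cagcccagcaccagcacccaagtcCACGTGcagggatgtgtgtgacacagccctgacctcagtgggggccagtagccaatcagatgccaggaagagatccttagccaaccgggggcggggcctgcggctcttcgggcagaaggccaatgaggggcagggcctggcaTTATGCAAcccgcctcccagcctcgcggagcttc

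Immediate-early genes, which cells switch on within minutes of a stimulus or of handling, had more lower calls than higher ones. Of 24 tested, 2 were called higher (8.33%, against 8.81% of all genes) and 5 lower (20.8%, against 7.79%). The median difference was -0.09. The lower genes were 3 members of the AP-1 family, the early gene Ier2 and the nuclear receptor Nr4a1: Jund fell by 0.45, Jun by 0.67, Junb by 1.44, Ier2 by 0.63 and Nr4a1 by 1.52. Klf6 rose by 0.66 and Fosl2 by 0.96. Fos was between 10.55 and 11.56 in set 1 and at most at 10.75 in set 2, and did not pass (difference -0.79, adjusted p = 0.108). Egr1 (-0.19), Atf3 (-0.09) and Ier3 (0.05) lay near 0 against SEs of 0.24 to 0.44. Of the list, 3 were lower without control 5, mutant 7, control 2 or mutant 1, and 1 was higher without control 1, mutant 1 or mutant 2.

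Lists of the aorta's own wall had shares of calls near or below those of all genes. Of 31 contractile genes of smooth muscle, 1 was called higher (Casq2, 3.23%) and 3 lower (9.68%), against 8.81 and 7.79% of all genes. Their median difference was 0.00. At an unadjusted limma p under 0.05 there were 10 of the 31, against 10333 of all 27023 probe sets. Csrp1, a LIM protein of smooth muscle, fell from 14.13, 14.09, 13.93 and 13.79 to 13.44, 13.31, 13.06 and 13.29 (difference -0.71, SE 0.07, adjusted p = 0.00148). Myl6, the essential light chain, fell by 0.85, and Ppp1r14a, the inhibitor of myosin phosphatase, by 0.43, the latter only with the genotype term (adjusted p = 0.186 without it). Among 29 genes of the actin cytoskeleton, a list that also holds SRF targets of many tissues, 2 were higher and 2 lower (6.9% each). Their median was 0.03. Of 47 extracellular matrix genes, 3 were higher (6.38%) and 1 lower (2.13%). Col4a1, a basement membrane collagen, rose by 0.34, and Tnxb, tenascin X, fell by 1.07, from 11.64, 11.74, 11.74 and 10.97 to between 10.31 and 10.56 in set 2. Without mutant 8, 8 matrix genes were lower in place of 1.

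Markers of fibroblasts, macrophages and fat around the aorta were called at shares near or below those of all genes. Higher calls were 7.14% of fibroblast, 4.76% of macrophage and 6.25% of brown fat genes, against 8.81% of all genes. Lower calls were 5.26% of white fat genes, against 7.79% of all genes. Several lists of cells around the aorta leaned on mutant 8. Adventitial fibroblast genes had 1 call of 14, decorin (Dcn, 1.08 higher), with mutants above controls in both sets. That call was lost without control 5, control 6 or mutant 1 (highest adjusted p = 0.0607). Lyve1, a receptor of resident macrophages and lymphatic vessels, was the only one of 21 macrophage genes called, at 6.36, 6.32, 7.21 and 7.04 in set 1 and 8.31, 7.68, 7.95 and 8.63 in set 2 (difference 1.41, SE 0.21, adjusted p = 0.00554). The macrophage list's median was 0.52 in the controls and -1.13 in the mutants. Of 19 white fat genes, Lipe, the hormone-sensitive lipase, was called lower, from 6.36, 7.27, 7.83 and 10.08 to 5.42, 5.03, 4.60 and 4.52 (difference -2.99, SE 0.71, adjusted p = 0.0271). Its call was lost without control 6, mutant 7, control 2, mutant 1 or mutant 2. Of 16 brown fat genes, Dio2, the enzyme that activates thyroid hormone, rose by 1.65 (SE 0.34, adjusted p = 0.0167), and it lost its call without control 6 (adjusted p = 0.0522).

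Sympathetic neuron genes were high on mutant 8 alone. The list's mean level there was 6.06 above its mean over all arrays, and between -1.01 and -0.71 on the other arrays. Ddc, an enzyme of dopamine synthesis, was at 11.81 on mutant 8 and between 2.48 and 4.00 elsewhere. None of the 21 genes was called, and the median difference of -1.75 became 0.04 without mutant 8. Schwann cell genes had no call of 14, with a median of -0.49 that became 0.02 without mutant 8, where 2 were called higher, and 1 was called lower without mutant 7. No gene of neutrophils and red blood cells (6 tested), of neighbouring organs (6) or of the cell cycle (20) was called by limma. At an unadjusted p under 0.05 there were 0 sympathetic genes and 1 Schwann cell gene, 1 gene each of the first pair of those lists, and 4 cell cycle genes, against 10333 of all 27023 probe sets. Of the Y-linked genes, Kdm5d, a histone demethylase, was 0.45 lower in set 2 (adjusted p = 0.0415), and it kept that call only without mutant 8 or without mutant 2. Its other tested probe set was not called (-0.22). Uty was called higher in 1 of its 4 tested probe sets (0.72, limma adjusted p = 0.0362), which was not its brightest.

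Genes of fatty acid oxidation and the respiratory chain were called at shares below those of all genes (8.81% higher and 7.79% lower). The fatty acid oxidation and respiratory chain lists had mean levels of 1.16 and 0.75 on mutant 8, and at most 0.14 and 0.03 elsewhere. Their median differences were 0.22 and 0.12 in the controls and -0.95 and -0.52 in the mutants. None of 18 fatty acid oxidation genes (2 at an unadjusted p under 0.05 in limma) and 1 of 37 respiratory chain genes was called, Atp5j at -0.18 (adjusted p = 0.0441, and 0.454 with median centring), a call kept without mutant 8 and lost without any other array. Cholesterol synthesis had 2 lower of 18 (11.1%), near the share of all genes, with a median of -0.58. These were the methylsterol oxidase Msmo1 (-0.87) and the regulator Srebf2 (-0.31). Msmo1 lost its call without control 6, control 2, mutant 1 or mutant 2, and Srebf2 kept its call only without mutant 8 or mutant 1. The summed log2 level of that list was 13.92 on mutant 8 and between 12.31 and 12.93 elsewhere. In the glycolysis and hypoxia list 2 of 20 were higher (10%), also near the share of all genes. P4ha1, which hydroxylates collagen prolines, was between 8.33 and 9.10 in set 1 and at 9.82, 10.26, 10.18 and 10.23 in set 2 (difference 1.38, SE 0.20, adjusted p = 0.00482), and the glucose transporter Slc2a1 rose by 0.45.

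Of 25 ribosomal protein genes tested, 7 were higher (28%) and none lower, against 8.81% and 7.79% of all genes. Their median was 0.15. Rps15, of the small subunit, was between 13.67 and 13.75 in set 1 and between 13.94 and 14.03 in set 2, a difference of 0.28 that exceeded the range of either set (SE 0.05, adjusted p = 0.00712). Rps6 differed by 1.24 and stood apart from the other members. The proteasome had 3 higher and 3 lower of 31 (9.68% each), near the shares of all genes. Psmd11 (0.62) and Psma4 (-0.63) were among them. Splicing factors had 6 higher (16.7%) and 13 lower (36.1%) of 36. U2af1, which recognizes the 3′ splice site, fell by 1.00 and the U1 protein Snrnp70 by 1.22, and Sf3b1 of the U2 particle rose by 0.75. With median centring 5 splicing factors were higher and 5 lower, with quantile normalization 6 and 11, and in controls alone 1 and 7. Lower splicing calls were 8 without control 5, mutant 7, control 1 or control 2. Higher ones were 3 without control 5, mutant 7 or mutant 1, 2 without control 6 or mutant 2, and 1 without control 2.

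Some of the lowest and highest genes belonged to no shifted list. Cap1, which recycles actin monomers, was at 12.54, 11.82, 12.06 and 10.83 in set 1 and at 8.24, 7.57, 6.95 and 7.50 in set 2 (19.0-fold lower, difference -4.25, SE 0.32, adjusted p = 0.000696), and its second probe set differed by -4.61. No other gene of the actin list differed by as much as 1. Tmem87a, a membrane protein of the Golgi, was at 5.95, 7.41, 8.24 and 7.32 in set 1 and between 3.03 and 3.13, at the dim end, on all arrays of set 2 (difference -4.17, SE 0.39, adjusted p = 0.0012). Ldb2, a LIM domain adaptor, fell by 2.65 in its brightest probe set and by 1.70 and 2.76 in its other 2. Zdhhc23, a palmitoyltransferase, was at 6.28, 4.63, 4.87 and 4.26 in set 1 and at 8.38, 8.71, 7.72 and 8.50 in set 2 (difference 3.32, SE 0.39, adjusted p = 0.00231). Also among the 12 lowest were Gdpd3 (-3.54), a lipid phosphodiesterase, and Isl1 (-2.60), a transcription factor of motor neurons and heart progenitors, both highest in mutant 8.

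Probe sets of the same gene did not always move alike. Malat1, an abundant RNA that stays in the nucleus, fell in 6 of its 7 tested probe sets, by between 0.90 and 3.41, and the other differed by -0.35 (adjusted p = 0.0985). In the one with the highest mean it was at 13.90, 14.37, 14.21 and 14.21 in set 1 and 11.85, 11.86, 12.27 and 12.04 in set 2. Neat1, another nuclear RNA, fell by 0.71, and the other 7 of the 9 nuclear-retained RNAs were not called in their brightest probe set. Meg3 was called higher in 1 of its 10 tested probe sets (1.56, limma adjusted p = 0.00821), which was not its brightest. Tef gave -0.39, -3.82 and -2.03 in its 3 probe sets, and the first was the brightest. Scaf11, a splicing-associated protein, gave a fall of 2.02 in its brightest probe set (10.27 to 10.51 against 8.23 to 8.54) and a rise of 0.37 in the next (9.07 to 9.18 against 9.39 to 9.59). Hnrnpa2b1, an RNA-binding protein, rose by 0.26 in its brightest probe set and fell by 0.48 to 0.85 in its other 3. Per2 was at -0.02 and -0.55 in 2 probe sets, neither called, and rose by 1.34 in the other. Col1a2, a collagen chain, rose by 0.36 in its brightest probe set and fell by 2.15 in a dimmer one. The rise was called without control 5 or control 2 and lost without any other array (highest adjusted p = 0.13).

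**Figure D4:**
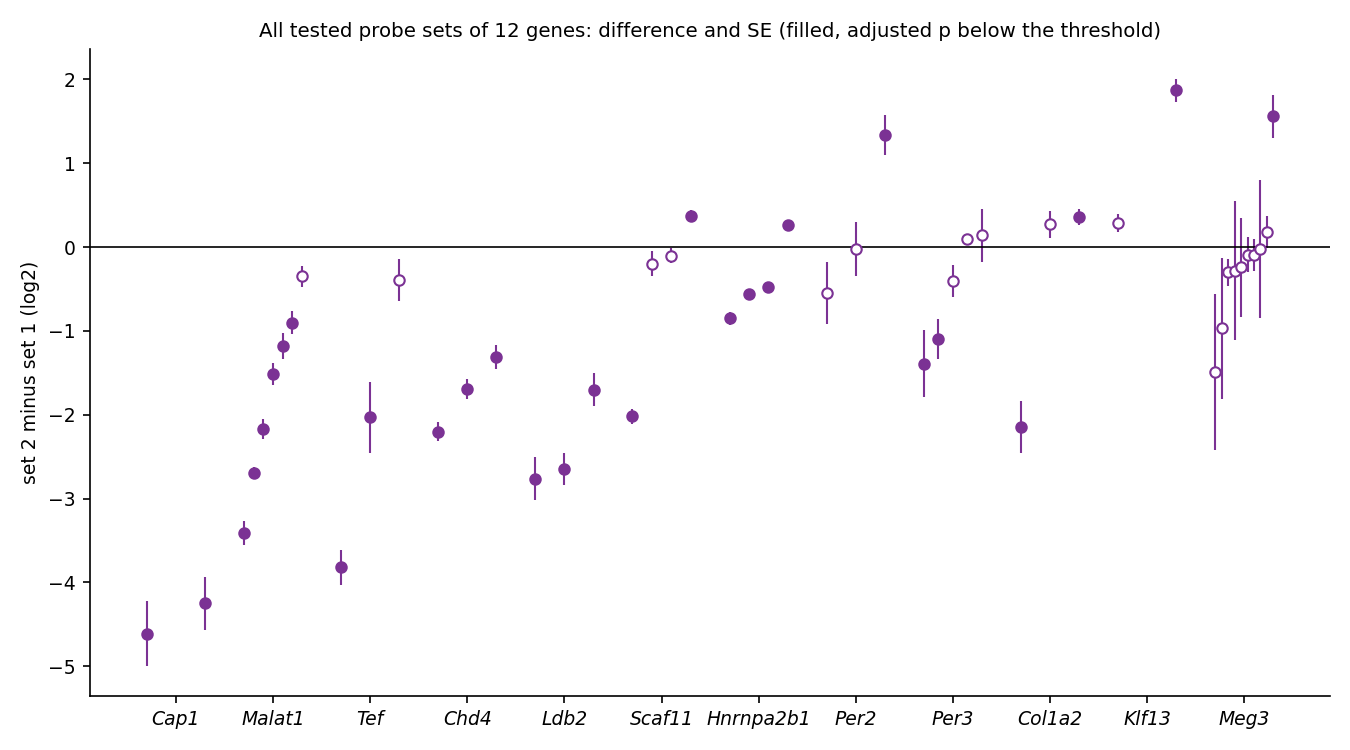
Difference between the sets (set 2 minus set 1, log2) with its SE for every tested probe set of 12 genes, filled where the adjusted p was under 0.05. Cap1, Chd4 and Ldb2 are lower in all their probe sets, while Scaf11, Hnrnpa2b1 and Col1a2 have called probe sets on both sides of 0 and those of Malat1 run from -3.41 to -0.35.

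Across the table, 5820 genes had more than 1 tested probe set and 2569 of these had at least 1 called. In 232 of them (9.03%) some probe sets were called higher and others lower, and among 881 genes with at least 2 called, 649 had them all in 1 direction. The kind of probe set went with the direction. Probe sets with no gene symbol were higher in 20.5% and lower in 6.63%, against 9.25% and 11.3% of those with 1 symbol. By name ending, those in _a_at were higher in 6.87% and lower in 17.1%, and those in _x_at in 12.4% and 4.53%. In the dimmest of 5 equal groups by mean level, 4.79% were higher and 4.31% lower, and in the brightest 14.3% and 10.2%. The cause of these differences was not tested.

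Both genotypes carried much of the same difference. In the controls alone, 2 arrays against 2, 2790 of 27023 probe sets were called (10.3%), 1033 higher and 1757 lower, and 899 of 12173 genes (7.39%). In the mutants, which are other arrays, 2647 of these 2790 (94.9%) had the same sign, where 73.6% of all probe sets did. In the mutants alone limma called none (0%), with 5442 at an unadjusted p under 0.05. Across the 27023 probe sets the difference in the controls and that in the mutants correlated at 0.60, with probe sets as points and no sample in common. Myh6 differed by 4.69 in the controls and 4.73 in the mutants, Zbtb16 by 3.05 and 3.02, Cap1 by -4.27 and -4.22, and Malat1 by -2.28 and -2.06. MHC class II genes had medians of -1.51 and -4.26, white fat genes of 0.37 and -1.69, and brown fat genes of 1.50 and -0.89. Both fat lists were highest on mutant 8. White fat had a mean level of 2.44 there and -0.91 to 0.18 elsewhere, and brown fat 1.61 and -1.71 to 0.57. Without mutant 8 their median differences were 0.10 and 0.54.

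**Figure D5:**
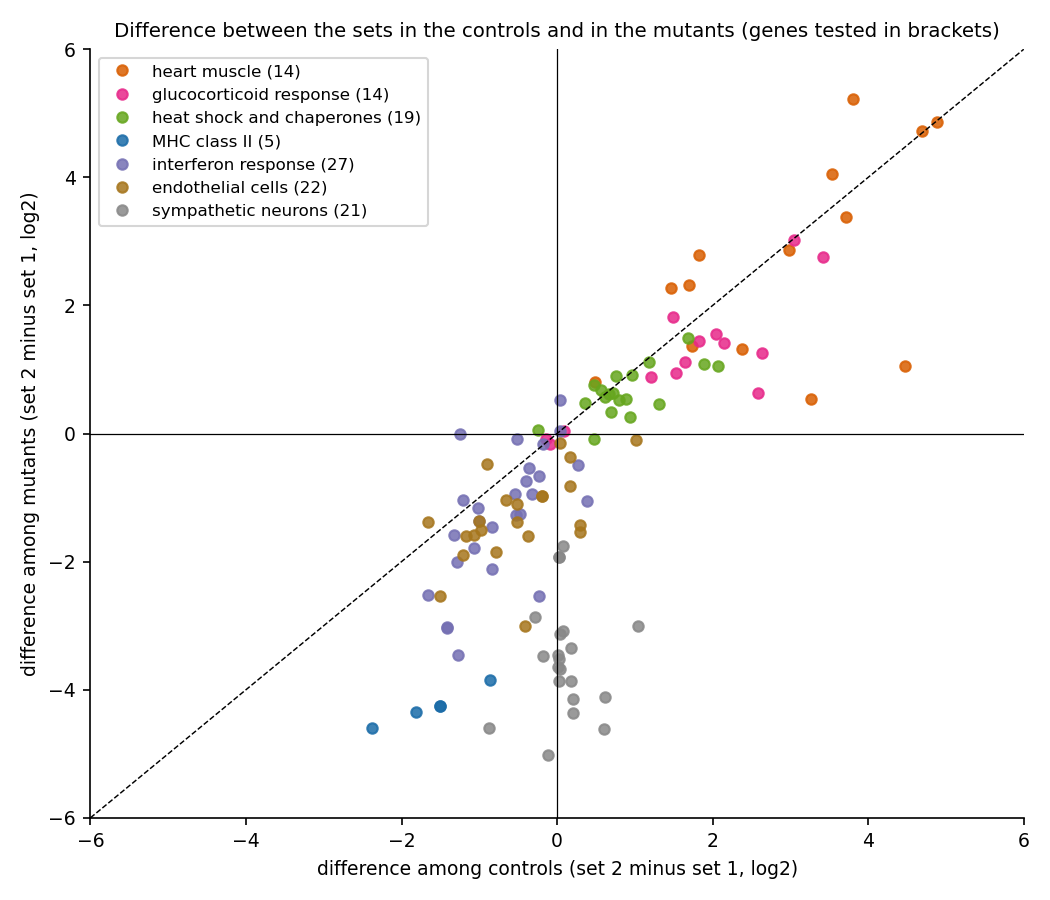
Difference between the sets (log2) among the controls (horizontal) and among the mutants (vertical) for each tested gene of 7 lists, with a dashed line where both are equal. Most heart, glucocorticoid and chaperone genes are above 0 in both genotypes, MHC class II genes are below 0 in both and lower in the mutants, and sympathetic neuron genes are far below 0 in the mutants, where mutant 8 is 1 of 4 arrays.

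A test of the gap between the genotypes called 14 of 27023 probe sets (0.0518%), with 1384 at an unadjusted p under 0.05. In 10 of them the level was raised in mutants 7 and 8 of set 1 alone. Mpeg1, perforin-2 of macrophages, was at 8.19 and 7.70 there and between 3.86 and 4.01 on the other arrays. Gbp8, an interferon-induced guanylate-binding protein, was at 6.80 and 6.73 and between 3.01 and 3.18 elsewhere, and the leukocyte genes Cd52 and Coro1a were at 7.28 and 7.13, and at 7.42 and 7.87. Pon1, a lipoprotein-bound esterase, was at 9.55 and 9.54 against 5.25 to 6.23. These counts rested on single arrays: 0 were called without control 5, control 6, mutant 1 or mutant 2, 3 without control 1, 4 without control 2, 62 without mutant 8 and 2750 without mutant 7, where mutant 8 is the only mutant of set 1.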

How the data were processed

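The members and gene lists were chosen with earlier results of these data known. The deposited values are log2 levels of 45037 Affymetrix mouse probe sets, made by the authors, per the submitters' processing notes, with GCOS, and the sources used here do not give their normalization. They were used as deposited and ran from 0.90 to 15.82. The dimmest 40% of probe sets by mean level over all 8 arrays were left out, and the lowest mean kept was 2.97. The rest were fitted with limma 3.58.1 (R 4.3.3) with set and genotype as terms and a mean-variance trend. Some genes passed the filter only through the arrays where they were high, so their calls are not independent of it. Among them, Jchain, Gdpd3 and Bhlhe41 had set 2 means of 2.84, 2.83 and 2.24. The Kank1 probe set called for the interaction had a set 2 mean of 2.54. Myom2 and Ckm had set 1 means of 2.54 and 2.25. Probe sets named no gene (9160), several (932) or 1 (34945) by the platform annotation, and a gene was represented by its brightest probe set. The 33 lists hold 763 genes, 622 of them tested. Named genes were the 12 highest and 12 lowest called genes whose arrays do not overlap, up to 4 genes per list with the smallest p, the clock lists and the sex-linked genes. Other genes named were chosen after their values were seen. On simulated data with 200 changed probe sets, the fit recovered 17.6% of changes of 0.5, 58.2% of 1 and 86.4% of 2 (log2). In the data 5796 probe sets were called, and the cutoff of the adjustment depends on that share. The recovery rates therefore describe only the simulated case. The number of arrays limits the precision. Alternatives changed the filter, scaling, terms, variance model, arrays and genotypes used.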

Additional observations from a re-analysis of the deposited data

Results flagged for a closer look

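Of 66 list levels (a list's mean log2 level in 1 set of 4 arrays, relative to all arrays), 9 had an array flagged by Dixon's test. Chance gives about 1 in 20 for 4 like arrays, whereas each set mixes 2 genotypes. The test sets the gap against the range of the 4 arrays, so a small offset can be flagged. In set 1 these were sympathetic neuron genes in mutant 8 (6.06), nuclear-retained RNA in mutant 8 (0.72) and clock repressors and outputs in control 5 (0.54). In set 2, control 2 was flagged for sympathetic neurons (-0.71, against -0.91 to -0.89 on the others), fibroblasts (-0.67) and extracellular matrix (-0.21). Mutant 1 was flagged for immediate-early genes (-0.31) and glycolysis (-0.06, against 0.03 on the others). Mutant 2 was flagged for lymphocytes and plasma cells (-0.43, against -0.54 on the others).

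For 14 probe sets the difference between sets was not the same in both genotypes (limma interaction, adjusted p under 0.05). The difference in the mutants minus that in the controls was -3.64 for Gbp8, -3.94 for Pon1, -3.85 for H2-Q5, -2.19 for Ubd, -4.03 for Mpeg1, -1.68 for Aif1, -3.46 for Cd52 and -3.16 for Coro1a. It was -4.02 and -2.09 for 2 probe sets with no single symbol. All of these were raised in mutants 7 and 8. H2-Q5, Ubd and the probe set at -4.02 passed the filter on dim probe sets only through those arrays. The difference in the mutants minus that in the controls was 1.50 for Kank1, which was highest in controls 5 and 6. Kank1 passed that filter only through its level in set 1 (mean 2.54 in set 2). For 3 more without a symbol (-4.26, -2.36 and -4.57) the level was raised in controls 1 and 2 of set 2.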

How the results depend on the processing

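No paired analysis was possible because the sets share no array numbers within a genotype. Of 86 named genes called as reported, none changed direction in 1538 values under the alternatives, and 254 of those values missed the threshold. Calls numbered 10011 with array weights (4591 higher, 5420 lower) and 2790 in controls alone (1033 higher, 1757 lower), and lower calls 1800 with median centring. In mutants alone limma called 0, 0 higher and 0 lower, with 5442 at an unadjusted p under 0.05. The interaction count was 36 with no filter and 1 with a stricter filter. Leaving out 1 array gave 3391 to 7511 calls, 1724 to 3174 higher and 1667 to 4337 lower, and 0 to 2750 for the interaction. The reversals were all in genes not called, 35 values of 15 genes. Per2 was 0.02 with quantile normalization, 0.08 with median centring, 0.01 with array weights, 0.07 in mutants alone, and 0.15, 0.02, 0.15 and 0.21 without control 5, mutant 7, control 1 and mutant 1, in a range of -0.28 to 0.21 over all fits without 1 array. Npas2 was -0.04 with array weights, -0.25 in controls alone, and -0.33, -0.07, -0.14 and -0.10 without control 5, mutant 8, control 1 and mutant 1 (range -0.33 to 0.61). S100a9 was 0.02 with median centring. In controls alone, S100a9 was 0.05, Aif1 0.03, Cd14 0.09, Cd52 0.06, Ltb 0.03, Adipoq 0.50, Slc18a2 0.01, Dhh 0.02, Erbb3 0.06, Per3 -0.07 and Cry1 -0.23. Ciart was -0.18 in mutants alone, and -0.26, -0.22 and -0.48 without control 6, control 2 and mutant 2 (range -0.48 to 0.62). Cry1 was -0.06, -0.16 and -0.32 without control 6, mutant 7 and mutant 2 (range -0.32 to 0.38). Without mutant 2, Per3 was -0.15 (range -0.15 to 0.36) and Cry2 -0.07 (range -0.07 to 0.20). The cause was not tested.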
